A study of Oryza sativa Japonica Group with 59 samples.

Results

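Wild type unicellular microspores were compared with wild type meiocytes, the diploid cells of the rice anther that enter meiosis and give rise to them. The comparison rests on 6 RNA-seq libraries, 3 of microspore and 3 of meiocyte, which were chosen by their labels from the 27 RNA-seq libraries and 59 samples of the series. All 6 came from Zhonghua11 (ZH11), a japonica variety, and from wild type plants regenerated from tissue culture, so no mutation and no treatment separates the groups. Meiocytes were taken from panicles of about 5 cm after the outer anther wall had been stripped off. Microspores were taken from panicles of about 8 cm by squeezing them out through a hole made in the anther. In both cases single cells were picked with a micromanipulator. No source used here says whether the 3 libraries of a group came from different plants, so p-values measure the spread between these libraries, which may be technical. The number of microspores per RNA-seq library, and whether the microspore and meiocyte libraries were prepared together, are not given in the sources used here, and the labels and the study's methods name different cDNA amplification kits. Cell type, panicle stage, isolation and library preparation therefore cannot be told apart.

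In meiosis the meiocyte pairs its homologous chromosomes, recombines them and divides to give a tetrad of haploid microspores. The free microspore then enlarges, builds the patterned outer wall of the pollen grain and arrests before the first pollen mitosis. The wall material comes largely from the tapetum, the innermost anther cell layer, which surrounds the meiocytes and microspores and breaks down as pollen matures. Transcripts of the meiotic programme, of chromatin assembly and of protein synthesis are therefore the classes of most interest on the meiocyte side, and transcripts of wall formation and early pollen development on the microspore side.

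Total counts on genes were 14191264, 12081830 and 16678222 in meiocyte replicates 1, 2 and 3, and 10980349, 13127575 and 12685316 in the microspore replicates. Each file lists 55986 features. Libraries of one group differed from each other by 1.45 to 3.35 times the variation that counting noise gives (chi-square per degree of freedom over features with enough counts), so no library was a copy of another. Counts were scaled by TMM and are given as CPM, the counts of a gene per 1000000 scaled counts of its library. TPM, the deposited value per transcript length, is used where the levels of different genes are set side by side.

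Of the 23884 genes that passed the filter on low counts, 14814 were called different between microspore and meiocyte. A call required more than a 2-fold difference and a p below 0.01 from the quasi-likelihood test of edgeR, after Benjamini-Hochberg adjustment over the genes tested. Genes called higher in microspore made up 29.7% of the genes tested, and genes called lower made up 32.3%. These shares are the background for every count of members below. The changes were large. More than a 10-fold difference was found for 2257 of the genes higher in microspore and for 2352 of those lower, and the median log2 fold change was 2.31 among genes called higher and -2.36 among genes called lower. The biological coefficient of variation between libraries of a group was 3.70%. In such bulk libraries, fewer cells of a type and less RNA per cell cannot be told apart, so every difference is one of relative abundance.

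The identity of the cells was checked with marker lists of 16 meiotic, 15 tapetum, 3 gamete and 4 green tissue loci. All 16 meiotic loci passed the filter, 14 of them were called lower in microspore, none was called higher, and the median log2 fold change was -3.83, against -0.05 over all genes tested. Summed over the list, meiotic transcripts were at 687 to 705 CPM in meiocyte and at 60.2 to 63.4 CPM in microspore. *MEL1* (LOC_Os03g58600), a germ-cell Argonaute, had 2133, 1765 and 2441 counts in meiocyte and 20, 29 and 18 in microspore. The groups lay far apart, at 132 ± 1.52 and 2.04 ± 0.444 CPM (SD, n = 3), with a difference of -6.01 ± 0.09 (SE) on the log2 scale (edgeR, adjusted p = 3.29e-30).

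The genes that carry homologous pairing fell with it. *PAIR3* (LOC_Os10g26560), which encodes a protein of the chromosome axis, had 424, 333 and 459 counts in meiocyte and 3, 7 and 5 in microspore (log2 fold change -5.76). *ZEP1* (LOC_Os04g37960), the central element of the synaptonemal complex in rice, fell by 4.80 on the log2 scale, from 25.8 ± 0.922 to 0.919 ± 0.178 CPM (SD, n = 3). *CRC1*, an ATPase needed for synapsis, fell by 5.16, and *PAIR1* and *PAIR2* fell by 4.41 and 2.79 on the log2 scale.

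Genes of meiotic recombination were also lower. *SPO11-1* (LOC_Os03g54091), which makes the DNA breaks that start recombination, had 410, 314 and 457 counts in meiocyte and 31, 51 and 33 in microspore (log2 fold change -2.81). The recombinase gene *DMC1A* fell by 4.33 on the log2 scale, and *MER3* and *MSH5*, which act in crossover formation, fell by 3.33 and 3.20. *HEI10* (LOC_Os02g13810), a further crossover gene, was at 17.5 ± 1.05 CPM in meiocyte and 9.11 ± 0.827 CPM in microspore (SD, n = 3). Its log2 fold change of -0.94 stayed inside the 2-fold limit, although the libraries did not overlap, and it passed that limit without meiocyte replicate 1 (-1.02) and without microspore replicate 2 (-1.01). The remaining 5 meiotic loci, whose symbols had no match in the reference table, gave 4 lower calls and 1 without a call.

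Tapetum markers moved in both directions. Of the 15 loci, 13 passed the filter, 9 were called higher in microspore and 3 lower, with a median log2 fold change of 1.68. *C6* (LOC_Os11g37280), which encodes a lipid transfer protein that the tapetum secretes for the pollen wall, had 169, 162 and 208 counts in meiocyte and 391158, 529493 and 552184 in microspore. It rose from 11.3 ± 0.761 to 44774.5 ± 4858 CPM (SD, n = 3), which is 11.96 ± 0.09 (SE) on the log2 scale (edgeR, adjusted p = 2.57e-36). *CP1*, a tapetum protease gene, had at most 2 counts in any meiocyte library and 67, 89 and 86 in microspore, which is at least 32.8-fold higher when the meiocyte level is set at 3 counts in the smallest library. *PTC1*, a regulator of tapetum breakdown, also had at most 2 counts in meiocyte and 23, 31 and 28 in microspore, at least 11.1-fold higher.

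The early tapetum regulator *UDT1* (LOC_Os07g36460) went the other way, with 1121, 1005 and 1476 counts in meiocyte and 34, 27 and 36 in microspore (log2 fold change -4.66). *TIP2*, which encodes a helix-loop-helix factor acting after *UDT1*, fell by 1.27 on the log2 scale. *TDR* and *GAMYB*, 2 regulators of tapetum development, rose by 1.65 and 1.17, and *CYP703A3*, a hydroxylase gene of sporopollenin synthesis, rose by 1.68. *EAT1* (LOC_Os04g51070), a regulator of tapetum cell death, was abundant in both, at 945 ± 31.6 CPM in meiocyte and 693 ± 6.45 CPM in microspore (SD, n = 3), with a log2 fold change of -0.45 and no call. *AP37* and *RTS* had too few counts to be tested, at most 4 and 19 in any library. Of the 4 tapetum loci without a matched symbol, 3 were higher and 1 was lower. Over the whole list, summed levels were 2146 to 2188 CPM in meiocyte and 45374 to 54885 CPM in microspore, and without *C6* they were 2135 to 2175 and 5664 to 5785 CPM. Most of the rise without *C6* rests on LOC_Os03g07250, a locus without a matched symbol. It was at 114 ± 6.52 CPM in meiocyte and 3373 ± 97.1 CPM in microspore (SD, n = 3). The sums are therefore no sign of a rise across the list. Only 2 of the 15 loci were at 0 in every meiocyte library and none was at 0 in every microspore library. Tapetum transcripts thus moved with cell type, and their part in the differences below was not tested.

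**Figure D1:**
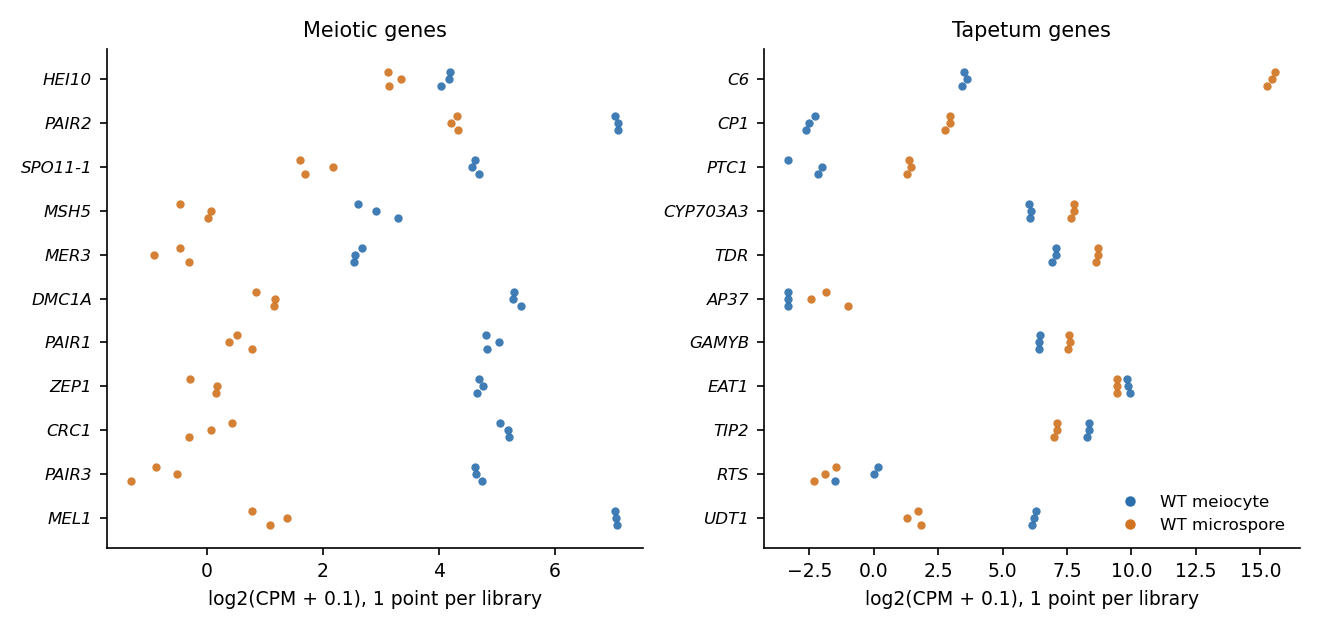
Levels of 11 meiotic genes (left) and 11 tapetum genes (right) as log2(CPM + 0.1), with 1 point per library, blue for the 3 WT meiocyte and orange for the 3 WT microspore libraries. Meiotic genes lie lower in microspore throughout, by the least in *HEI10*, while tapetum genes run from *UDT1*, lower in microspore, to *C6*, higher by 11.96 on the log2 scale.

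The other lists were small. Green tissue transcripts split. *rbcS* (LOC_Os12g17600), for the small subunit of Rubisco, rose from 5.55 ± 0.408 to 138 ± 4.80 CPM (SD, n = 3), while the light-harvesting genes *CAB2R* and *CAB1R* fell by 3.28 and 2.42 on the log2 scale, and *RCA*, for Rubisco activase, fell by 3.68. Of the 3 gamete loci, 2 were called higher in microspore and none lower, and the list never exceeded 9.81 CPM in sum.

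Transcripts gained after meiosis were defined as genes called higher in microspore with at most 3 counts in every meiocyte library and at least 10 in every microspore library. There were 1101 of them, 4.61% of the genes tested, and 408 had no count at all in any meiocyte library. Transcripts lost after meiosis were defined the opposite way. There were 1390, 5.82% of the genes tested, of which 190 had no count in any microspore library. Most were rare. The median level in the cell type of higher level was 2.35 CPM for gained and 2.63 CPM for lost genes, and 147 gained and 215 lost genes reached 10 CPM. The gained set includes the tapetum markers *CP1*, *PTC1* and LOC_Os06g40550, and also the gamete marker LOC_Os04g46384. The part of tapetum transcripts in the gained set was not tested.

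The gained transcripts nevertheless took more of the library. They held 2.46% to 2.71% of all counts in the microspore libraries, whereas lost transcripts held 1.31% to 1.33% of all counts in meiocyte. The gained gene LOC_Os07g46210 alone held 1.19%, 1.38% and 1.47% of the counts in microspore replicates 1, 2 and 3. The larger share of the gained transcripts therefore rests on this gene. At 1000 CPM or more there were 4 gained genes and 0 lost genes. Gained genes had a median transcript length of 1404 bases and lost genes one of 845.5 bases, against 1735 bases for all genes tested.

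The largest rise was that of LOC_Os07g46210, for which the sources used here give no annotation. It had no count in any meiocyte library and 130934, 181406 and 186247 counts in microspore, at least 67514-fold higher. LOC_Os03g47896, also without an annotation, likewise had no count in meiocyte and had 6241, 7740 and 7663 in microspore, at least 2941-fold higher. Both were at 0 or 1 count in the 3 *cmt3b* meiocyte libraries of the series as well. By fitted fold change, the largest falls among genes of at least 10 CPM were those of LOC_Os10g22820, with 9419, 8135 and 11172 counts in meiocyte and 0, 1 and 0 in microspore, and of LOC_Os09g11260, with 1547, 1329 and 1948 in meiocyte and none in microspore. They were at least 1975-fold and at least 331-fold lower. Neither has an annotation in the sources used here.

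Among genes with an annotation, *Myb10* (LOC_Os09g23620), a MYB family transcription factor, led the rises. It had 1, 3 and 1 counts in meiocyte and 9603, 11839 and 11588 in microspore, at least 4490-fold higher. An inorganic H+ pyrophosphatase gene (LOC_Os01g23580), whose product pumps protons into the vacuole, had 0, 0 and 1 counts in meiocyte and 930, 1005 and 935 in microspore, at least 392-fold higher. *BURP15* (LOC_Os09g30320), which encodes a secreted protein with a BURP domain, had 34, 35 and 40 counts in meiocyte and 6073, 7554 and 7466 in microspore (log2 fold change 8.14 ± 0.07 SE, edgeR adjusted p = 3.26e-35).

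The other large rises among annotated genes were smaller by comparison. A cytochrome P450 gene (LOC_Os02g09400) rose by 6.44 on the log2 scale, and a haloacid dehalogenase-like hydrolase gene (LOC_Os07g44060) by 5.91. The glutathione S-transferase domain gene *GRX20* rose by 4.64, and a retrotransposon protein locus (LOC_Os03g19600) and a CACTA transposon locus (LOC_Os11g23234) rose by 4.95 and 4.70. The remaining large rises were a copy of photosystem I protein A1 (5.06) and a glycyltransferase gene (4.80).

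The lost transcripts included genes with named products. *SCL1* (LOC_Os03g59280), with a plastocyanin-like domain, had 1912, 1550 and 2000 counts in meiocyte and 2 in each microspore library, at least 377-fold lower. A triacylglycerol lipase gene (LOC_Os06g42860) had 1780, 1530 and 2121 counts in meiocyte and 3, 0 and 3 in microspore, at least 373-fold lower. *Fbox668* and *Fbox667*, F-box genes on chromosome 12 with nearby locus numbers, were at least 73.7-fold and at least 54.8-fold lower. These 4 genes, and among the rises the cytochrome P450 gene, *GRX20* and LOC_Os03g19600, come from a list that the study drew from the WT meiocyte libraries used here, so they are not an independent sample. *P31comet* (LOC_Os05g16250), whose product silences the spindle checkpoint and acts in rice meiosis, had 211, 170 and 239 counts in meiocyte and 0, 1 and 2 in microspore, at least 42.6-fold lower. A serine carboxypeptidase gene (LOC_Os01g22954), with 1, 1 and 4 counts in microspore, fell by 7.33 on the log2 scale but did not meet the definition of lost.

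The definition of gained and lost used 6 libraries, and the other libraries of the series were then read for the same genes. In the *cmt3b* meiocyte libraries, 886 of the 1101 gained genes (80.5%) again had at most 3 counts in every library and 16 had at least 10 in every library. Of the 1390 lost genes, 1085 (78.1%) had at least 10 counts in every *cmt3b* meiocyte library and 68 had at most 3. Over all genes tested, 4.95% were at the floor and 88.6% were present in *cmt3b* meiocyte by the same limits.

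For WT sperm the counts of the deposited files were averaged and read as 1 sample. There 331 of the gained genes (30.1%) were present and 681 (61.9%) were at the floor. In WT egg and zygote 4.72% and 3.91% of them were present. Of the lost genes, 333 were present in WT sperm, 370 in WT egg (26.6%) and 379 in WT zygote (27.3%). Of all genes tested, 65.3%, 79.2% and 78.6% were present in these cells. Gained and lost genes were chosen for a floor in meiocyte or microspore, and their median levels were below that of all genes tested. A fixed limit of 10 counts is harder to reach for such rare genes in any cell. The shares of all genes tested, here and in *cmt3b* meiocyte, are therefore no measure for them.

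**Figure D2:**
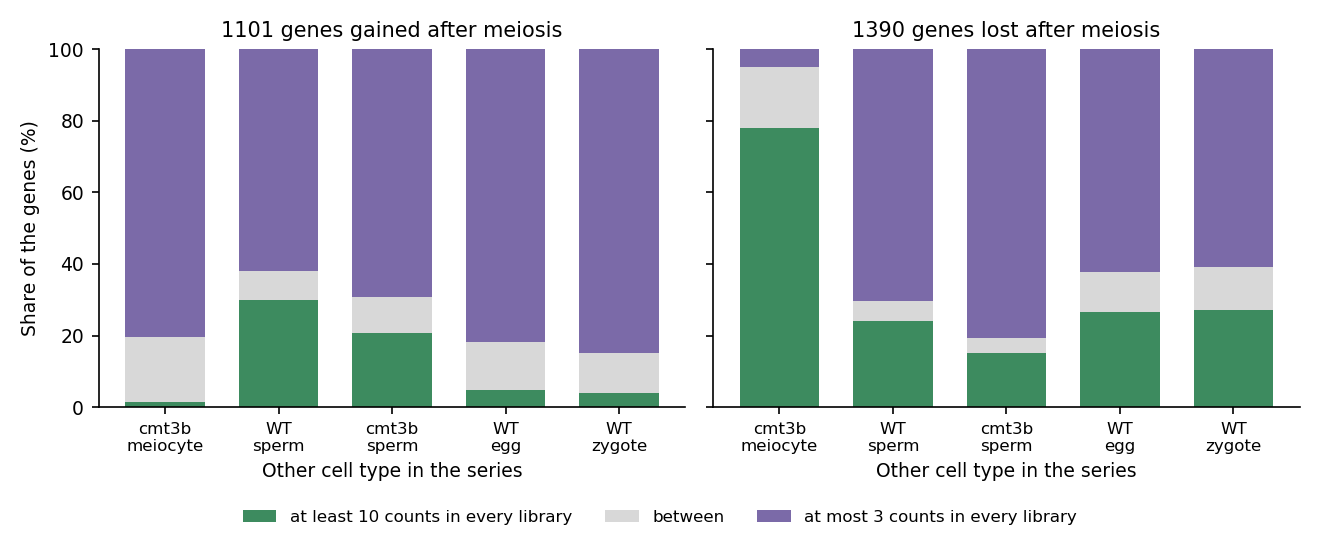
Share of the 1101 gained genes (left) and the 1390 lost genes (right) with at least 10 counts in every library (green), at most 3 counts in every library (purple) or neither (grey) in other cell types of the series. WT sperm is shown as the mean of its deposited files. Gained genes are mostly at the floor in *cmt3b* meiocyte, where 1.45% are present, and lost genes are mostly present there (78.1%).

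The chromosomes differed in what they lost. Lost genes made up 10.7% and 10.3% of the genes tested on chromosomes 11 and 12, and between 3.53% and 7.66% on the others, with the lowest share on chromosome 3. Gained genes made up between 3.20% (chromosome 2) and 6.73% (chromosome 10). Genes that lie side by side or are copies of each other are not independent, so these shares are a description without a test.

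Annotated genes were then read by function. The study's supplementary gene tables annotate 756 of the loci, of which 327 were placed in 15 groups by the wording of the annotation and the gene family that the tables give. The tables list genes chosen for methylation or for expression, and 1 table lists loci of higher expression in *cmt3b* than in WT meiocyte, so a group is a sample of its class and not all of it.

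The listed core histone genes, which supply chromatin during DNA replication, were lower in microspore without exception. All of them come from the study's list of zygote-expressed genes raised in *cmt3b* egg, which also holds cell division genes. They were not drawn from histone genes at large. All 21 listed members passed the filter, all 21 were called lower (background 32.3%), and the median log2 fold change was -5.07. *H3R-11* (LOC_Os06g06460), a histone H3 gene, had 12930, 12111 and 15944 counts in meiocyte and 33, 30 and 33 in microspore (log2 fold change -8.19 ± 0.08 SE, edgeR adjusted p = 1.24e-34). The most abundant member, a core histone gene on chromosome 1 (LOC_Os01g06010), was at 1482 ± 33.9 CPM in meiocyte and 42.9 ± 1.70 CPM in microspore (SD, n = 3). The smallest fall in the group was one of 3.53 on the log2 scale. Together the 21 genes held 11472 to 12531 CPM in meiocyte and 337 to 362 CPM in microspore. Members of this family are near-identical to each other, and their individual counts may share reads.

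The spindle, chromosome and meiosis proteins followed the histones. All 14 members were called lower, with a median log2 fold change of -3.74. Here too members such as *TOP2*, *SMC2*, *P31comet* and LOC_Os01g49200 are on the list of zygote-expressed genes raised in *cmt3b* egg. The group was therefore not drawn from genes of this kind at large. *TOP2* (LOC_Os02g47150), which untangles DNA before chromosomes separate, had 1940, 1618 and 2111 counts in meiocyte and 75, 83 and 90 in microspore (log2 fold change -3.97). A microtubule-associated protein gene (LOC_Os01g49200) fell by 5.69 and *SMC2*, a condensin subunit gene, fell by 3.99 on the log2 scale. Among the 5 kinesin motor genes the largest log2 fold change was -4.42 and the smallest was -1.43. The group was at 382 to 388 CPM in meiocyte and at 33.61 to 36.99 CPM in microspore.

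Protein synthesis genes were lower as well, by less. Of 51 ribosomal protein genes, all tested, 42 were called lower and 1 higher, and the median log2 fold change was -1.81. The members named below are on the study's list of genes with CHG methylation raised in microspore and erased in sperm. The 51 were therefore not drawn from ribosomal protein genes at large. The gene of 60S acidic ribosomal protein P0 (LOC_Os08g03640) had 47582, 39296 and 52725 counts in meiocyte and 3375, 3781 and 3496 in microspore, a log2 fold change of -3.16. A ribosomal protein L6 gene (LOC_Os09g31180) had the largest fall, with a log2 fold change of -4.82. The exception was a gene of 60S ribosomal protein L18a (LOC_Os01g47680), which rose from 10.3 ± 0.287 to 31.5 ± 2.85 CPM (SD, n = 3), a log2 fold change of 1.61. In sum the 51 genes held 29425 to 30807 CPM in meiocyte and 7133 to 7200 CPM in microspore, a smaller share in every microspore library.

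Of 11 translation factor genes, 8 were called lower and none higher (median log2 fold change -1.52). The elongation factor genes *rfa3* and *rfa1* fell by 2.47 and 2.20 on the log2 scale, and *rfa1*, the most abundant member, was at 1591 ± 92.0 CPM in meiocyte and 346 ± 33.2 CPM in microspore (SD, n = 3). Both are on the study's list of genes with methylation specific to the male sex cells. The initiation factor gene *eIF-4d*, of the 5A type, had a log2 fold change of 0.62 and was not called. Among 4 actin and tubulin genes, the tubulin genes *TID1* and *TUB2* fell by 2.21 and 2.13, the actin gene *act1* fell by 1.39, and a second actin gene (LOC_Os11g06390) had a log2 fold change of -0.27 and was not called.

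Loci annotated as plastid photosynthesis genes were the one group that was higher almost throughout. All 30 were tested and 29 were called higher (background 29.7%), with a median log2 fold change of 3.50. A copy of the plastid RNA polymerase beta subunit (LOC_Os04g16830) had 303, 282 and 363 counts in meiocyte and 2247, 2924 and 2877 in microspore (log2 fold change 3.63). Rubisco large subunit copy LOC_Os11g32770 had at most 1 count in meiocyte and 24, 55 and 63 in microspore, at least 19.0-fold higher. Most of these loci are nuclear copies of plastid genes, so reads from the plastid itself and from other copies may be shared among them, and nearly all were listed by the study for their expression in *cmt3b* sperm. With *cmt3b* meiocyte as the reference, 16 of the 30 were called higher and the median was 1.04, against 30.1% of all genes tested.

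Transcription factor genes moved in both directions. Of 38 listed, 27 were tested, 8 were called higher and 13 lower, with a median log2 fold change of 0.09. Besides *Myb10*, *bHLH023* (LOC_Os10g01530) rose from 0.164 ± 0.144 to 9.16 ± 0.106 CPM (SD, n = 3). The AP2 factor gene *EREBP1*, the most abundant of the group, had 2619, 2288 and 3204 counts in meiocyte and 8702, 10183 and 9746 in microspore (log2 fold change 2.37). *HMGB* (LOC_Os08g01100), for a DNA-bending chromatin protein, had 1378, 1151 and 1577 counts in meiocyte and 6, 6 and 9 in microspore (log2 fold change -7.04). A gene annotated as a core histone, which the tables place in the CCAAT family of transcription factors (LOC_Os08g33100), fell by 6.80 and *DEL2*, a member of the E2F family that controls the cell cycle, fell by 2.95. *HMGB* and LOC_Os08g33100 are also on the list of zygote-expressed genes raised in *cmt3b* egg. The auxin response factor genes moved apart, *ARF7b* rising by 3.63 and *ARF10* falling by 2.67.

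Genes of carbon and energy metabolism split, with 9 of 21 called higher and 7 lower (median log2 fold change 0.22). The 2 vacuolar pyrophosphatase genes crossed over. While LOC_Os01g23580 appeared in microspore, *OVP2* (LOC_Os06g08080) fell from 9272, 7690 and 10148 counts in meiocyte to 439, 503 and 468 in microspore, a log2 fold change of -3.72. In microspore the former was at 40.7 TPM and *OVP2* at 18.9 TPM, the reverse of the order in meiocyte (0.00892 and 268 TPM). The mitochondrial carrier gene *ant*, the most abundant of the group, fell by 2.11. The sucrose synthase gene *sus1* rose by 1.17 and the nucleoside diphosphate kinase gene *NDPK1* by 1.57, while *PGK2*, for phosphoglycerate kinase, fell by 1.68.

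Aquaporins and transporters also moved in both directions. In this group 18 of 22 were tested, 6 were called higher and 7 lower (median -0.44). Without the 3 members on the list drawn from these meiocyte libraries, 6 were higher and 4 lower (median -0.19). The vacuolar aquaporin gene *TIP1;1*, the most abundant member, fell by 2.32 on the log2 scale, and the plasma membrane aquaporin gene *PIP1;2* rose by 1.73. *PDR9*, an ABC transporter gene, rose from 37.6 ± 1.75 to 447 ± 10.7 CPM (SD, n = 3). The rarer members *PIP1;3* (log2 fold change 4.11), *LAX2* (at least 5.44-fold lower) and *PIP2;10* (at least 3.02-fold lower) rest on 102 counts or fewer per library.

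Of 19 genes of the cell wall and secreted proteins, 12 were tested, with 5 called in each direction (median -0.20). Beside *BURP15*, the COBRA-like gene *BC1L4* had 565, 502 and 671 counts in meiocyte and 3857, 4336 and 4201 in microspore (log2 fold change 3.38), and the lipid transfer protein gene *LTP1.9* rose by 3.25. A glucan endo-1,3-beta-glucosidase gene (LOC_Os01g53750), of the enzyme class that degrades callose, fell from 270, 235 and 307 counts to 2, 5 and 6 (log2 fold change -5.38).

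Redox genes gave 4 calls in each direction among 10 tested of 12 (median -0.13). Without *GRX20* and *rbohI*, which are on the list drawn from the WT meiocyte libraries used here, 2 were higher and 4 lower (median -1.19). The ascorbate peroxidase genes *APX1* and *APX2*, which remove hydrogen peroxide in the cytosol, fell by 2.51 and 3.37 on the log2 scale, and *APX1* was at 4128 ± 157 CPM in meiocyte and 724 ± 20.1 CPM in microspore (SD, n = 3). The superoxide dismutase gene *sodCc1* fell by 2.03. *rbohI* (LOC_Os11g33120), an oxidase gene whose product makes superoxide, rose from 39, 39 and 66 counts to 428, 505 and 541, a log2 fold change of 3.90.

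Of 18 F-box and ubiquitin genes, 12 were tested and 4 were called in each direction (median 0.36). Without the members on the list drawn from these meiocyte libraries, *Fbox667* and *Fbox668* among them, 4 were higher and 2 lower. *Ubi1* (LOC_Os06g46770), a ubiquitin gene, was the most abundant and varied between microspore libraries, with 49486, 69317 and 77309 counts against 25326, 19405 and 26613 in meiocyte, and it rose from 1490 ± 87.9 to 5953 ± 941 CPM (SD, n = 3). *Fbox258* and *Fbox316* rose by 2.42 and 2.12. Receptor-like kinases and resistance proteins were mostly rare, so that 11 of 21 were tested, with 6 called higher and 1 lower (median 1.28). *RLCK109* rose by 3.36 and *SERK1* by 1.28, *RLCK308* fell by 3.18, and a resistance gene on chromosome 3 (LOC_Os03g40194) was at least 5.42-fold higher.

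Of the 5 genes of DNA methylation and H3K9 demethylation, 3 were called lower and 1 higher. *CMT3a* and *MET1b* are on the list of zygote-expressed genes raised in *cmt3b* egg, and the others are genes that the paper names. Beside *CMT3a*, which fell by 4.21, the maintenance methyltransferase gene *MET1b* had 455, 387 and 536 counts in meiocyte and 140, 149 and 146 in microspore (log2 fold change -1.11). The demethylase gene *JMJ706* rose by 1.44. *CMT3b* fell from 30.7 ± 3.56 to 15.3 ± 1.42 CPM (SD, n = 3). Its log2 fold change of -1.02 ± 0.09 (SE) lay past the 2-fold limit by less than its SE, so its lower call is a narrow one. *JMJ707* lay at the 2-fold limit, with a log2 fold change of 1.00 and no call, and was called with DESeq2 size factors (1.03) and without microspore replicate 2 (1.01) or 3 (1.03).

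Transposon-annotated loci gave a mixed result that depends on how they were listed. Of 40 loci, 26 were tested, 14 were called lower and 5 higher, and the median log2 fold change was -2.14. Without meiocyte replicate 1, or without the filter on low counts, 8 were higher. The most abundant, a Ty1-copia retrotransposon locus (LOC_Os03g31134), fell from 447 ± 5.26 to 123.4 ± 10.1 CPM (SD, n = 3). Retrotransposon locus LOC_Os06g42380 was at least 44.6-fold lower and LOC_Os07g13210, with 104, 91 and 108 counts in meiocyte, had at most 1 count in any microspore library. However, 33 of the 40 loci come from the list that the study drew from WT and *cmt3b* meiocyte libraries. Among the 7 other loci, 6 were tested, with 1 called higher, 2 lower and a median of -0.02.

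**Figure D3:**
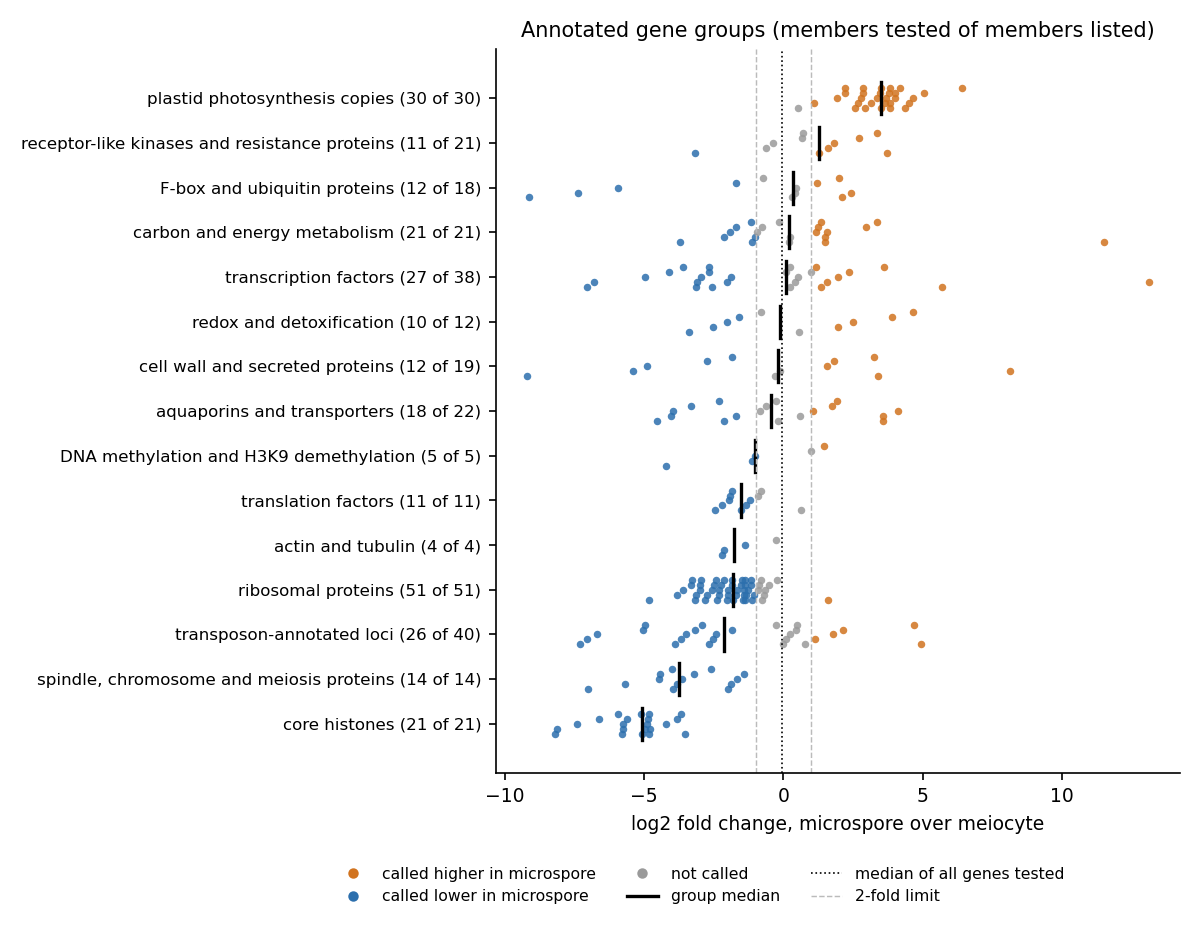
log2 fold change of microspore over meiocyte for each tested member of the 15 annotated groups, with 1 point per gene, orange where called higher in microspore, blue where called lower and grey where not called. Black bars mark group medians, which run from -5.07 (core histones) to 3.50 (plastid photosynthesis copies), and the dotted line marks the median of all genes tested (-0.05).

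The same groups were set against *cmt3b* meiocyte, 3 libraries from a mutant of the CHG methyltransferase gene *CMT3b*. The microspore libraries are shared by these comparisons, so the values stand side by side and neither checks the other. Core histones (21 of 21 lower, median -4.86) and spindle, chromosome and meiosis proteins (14 of 14 lower, median -3.49) gave the same counts. Of the ribosomal protein genes 48 of 51 were lower (median -2.38), and of the transposon-annotated loci 32 of 39 tested (median -3.96), against 32.6% of all genes tested. For the transposon-annotated loci this direction was favoured by their choice, since 33 of the 40 were listed for higher expression in *cmt3b* than in WT meiocyte. Of the 5 genes of DNA methylation and H3K9 demethylation, 3 were higher and 1 was lower against *cmt3b* meiocyte (median 1.06), whereas against WT meiocyte 1 was higher and 3 were lower (median -1.02). The 5 include *CMT3b*, the gene mutated in the reference, so its value there cannot be read as a difference between cell types. Among the others, *JMJ706* (1.06) and *JMJ707* were higher, *CMT3a* (-2.97) was lower and *MET1b* was not called. Of the named genes, *TDR* had a log2 fold change of -0.034 against *cmt3b* meiocyte, *CYP703A3* one of 0.83 and *MET1b* one of 0.18, and none of these was called. *CAB1R* (-0.86) and *SERK1* (0.98) also lost their call, and *JMJ707* (1.16) gained one.

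The counts of microspore were held by fewer genes. The 10 most abundant genes of a library took 4.55% ± 0.0974 of the counts in meiocyte and 15.2% ± 0.501 in microspore (SD, n = 3). The libraries did not overlap, with an exact two-sided permutation p of 0.1, the smallest that 3 libraries against 3 can give. The single most abundant gene took 0.774% ± 0.0255 in meiocyte and 4.17% ± 0.166 in microspore. Among the 100 most abundant genes the shares were 17.4% ± 0.211 and 25.9% ± 0.436, and among 500 they were 37.9% ± 0.305 and 41.5% ± 0.332. The difference thus lay in the very top of the distribution. By share of TPM, which removes transcript length, the 10 most abundant genes took 6.11% ± 0.0437 and 17.5% ± 0.846, and the 500 most abundant took 48.6% ± 0.351 and 48.3% ± 0.5004, where the libraries overlapped. In meiocyte 1043 ± 20.4 genes and in microspore 905 ± 17.6 genes held 50% of the counts.

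**Figure D4:**
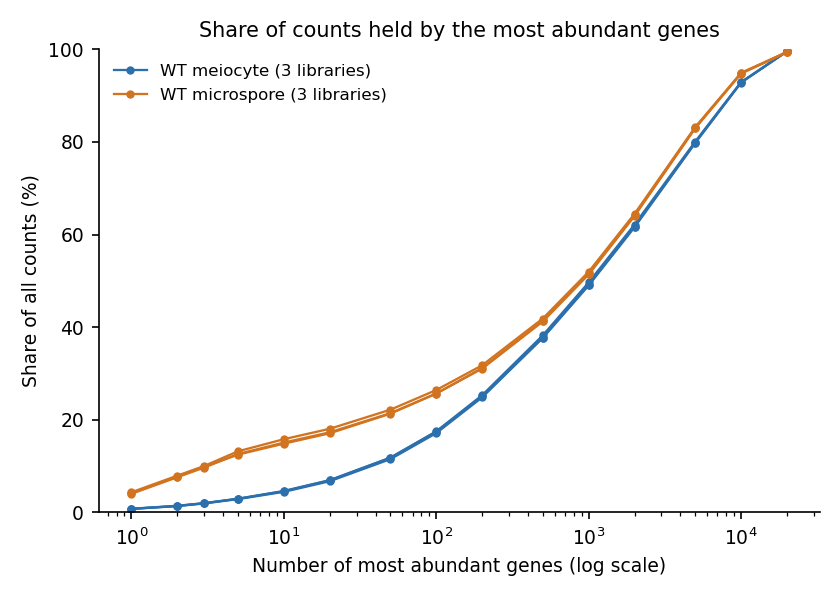
Share of all counts (%) held by the most abundant genes of each library, against their number on a log scale, blue for the 3 WT meiocyte and orange for the 3 WT microspore libraries. The curves are widest apart near 10 genes (4.55% and 15.2% on average) and close to each other at 500 genes (37.9% and 41.5%).

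At the top of the microspore list stood *C6*, with 3.56%, 4.03% and 4.35% of the counts in replicates 1, 2 and 3, and 0.00126% ± 7.58e-05 in meiocyte (SD, n = 3). By TPM it was also the most abundant gene of microspore, at 59759 ± 5762. LOC_Os09g01000 and LOC_Os09g00999, which have neighbouring locus numbers on chromosome 9 and no annotation in the sources used here, followed at 3.76% ± 0.309 and 2.11% ± 0.0558 in microspore and 0.628% ± 0.0260 and 0.318% ± 0.0138 in meiocyte. In microspore replicate 1 the former exceeded *C6*. LOC_Os07g46210, which had no count in meiocyte, was in the fifth place with 1.35% ± 0.141, and *Ubi1* was in the eighth with 0.529% ± 0.0794.

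All 10 of the top microspore genes were called higher than in meiocyte, and together they held 15.2% of the microspore counts and 1.32% of the meiocyte counts. They were picked by their abundance in the same microspore libraries, which favours a higher call, so the background of 29.7% is no measure for them. The most abundant meiocyte feature, LOC_Os07g33997 without an annotation, had 113633, 90643 and 128350 counts in meiocyte and 8995, 10554 and 9701 in microspore (log2 fold change -2.96). *APX1*, the gene of ribosomal protein P0 and the tubulin gene *TID1* were also among the 10 most abundant of meiocyte. Of those 10, which were picked by their abundance in meiocyte, 7 were called lower and 2 higher. The lists had 2 genes in common, LOC_Os09g01000 and LOC_Os09g00999. Of the 100 most abundant genes 16 were common to both cell types, and of the 500 most abundant 146.

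More features were detected in microspore, although its libraries were not deeper. At least 1 count was found for 31454, 30818 and 31737 features in meiocyte and for 42681, 42885 and 42291 in microspore. Since totals differed, the expected number was computed for a draw of 10980349 counts, the smallest of the 6 totals. At that depth it was 30496 ± 86.1 features in meiocyte and 41802.5 ± 778 in microspore (SD, n = 3), and the libraries did not overlap (exact two-sided permutation p = 0.1, the smallest possible here).

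The order turned with the number of counts asked for. At 10 counts or more, the equal-depth numbers were 21718 ± 17.6 in meiocyte and 20649.7 ± 111 in microspore (SD, n = 3), so that meiocyte had more. At 3 counts or more they were 25680 ± 19.6 and 29666 ± 475. In the deposited counts, 14089.7 ± 768 features of meiocyte and 11687.7 ± 388 of microspore had at least 100 counts. Microspore thus had more features with few counts and fewer with many.

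**Figure D5:**
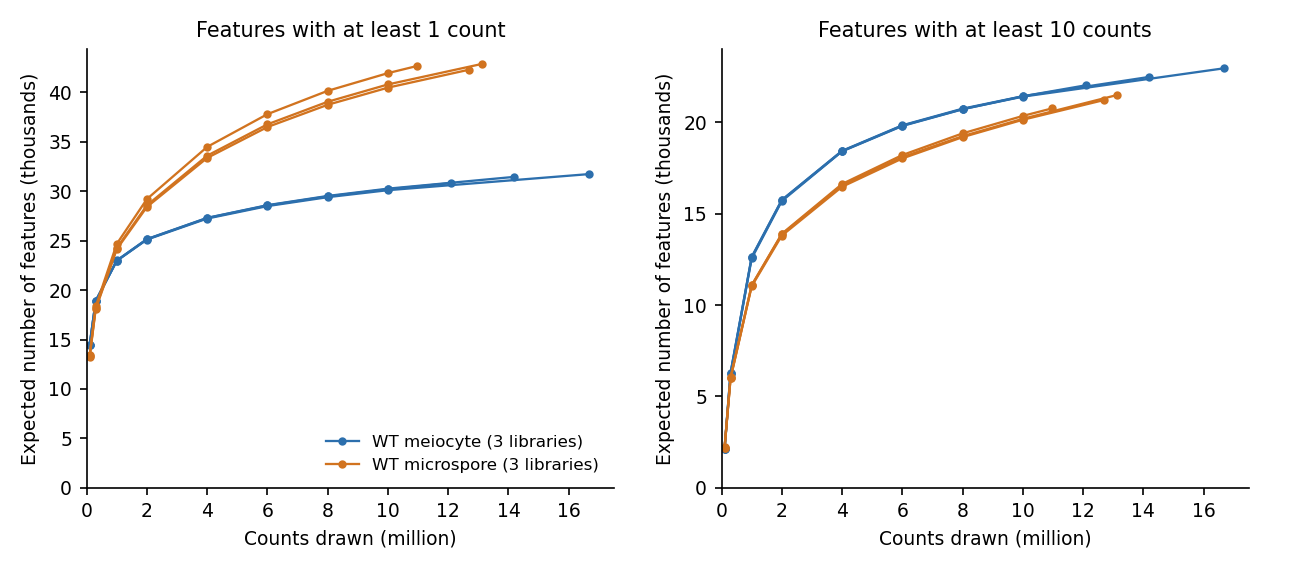
Expected number of features with at least 1 count (left) and at least 10 counts (right) in random draws from each library, against the number of counts drawn, blue for the 3 WT meiocyte and orange for the 3 WT microspore libraries. At 1 count the microspore curves rise above those of meiocyte and keep climbing, and at 10 counts they run below them, at 20649.7 against 21718 features on average at the smallest total.

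Features with 1 to 9 counts numbered 8964, 8788 and 8774 in the meiocyte libraries and 21909, 21385 and 21070 in the microspore libraries. They were 28.2% ± 0.497 of the detected features in meiocyte and 50.3% ± 0.860 in microspore (SD, n = 3). Their weight in the libraries was small, at 0.194% ± 0.0310 and 0.517% ± 0.0548 of all counts. At equal depth the numbers were 8778 ± 74.2 and 21153 ± 668, and again the libraries did not overlap (exact two-sided permutation p = 0.1, the smallest possible here). The number of features with exactly 1 count was 3306 ± 148 in meiocyte and 7575 ± 151 in microspore.

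These features recurred between libraries. Of the features with 1 to 9 counts in one microspore library, 74.6% to 77.0% had a count in another, and in meiocyte 65.7% to 76.1% did. In every microspore library 12054 features had 1 to 9 counts, against 4335 in every meiocyte library. Of the 12054, 5367 (44.5%) had no count in any meiocyte library, 1531 had 1 to 9 counts in every meiocyte library as well, and 1780 had at least 10 in every meiocyte library. Altogether 6358 features had a count in every microspore library and none in meiocyte, and 627 the opposite.

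Detection at low counts varied with transcript length. In the longest of 4 equal length classes (2347 to 16311 bases), 84.97% had a count in every microspore library and 55.5% in every meiocyte library. In the shortest class (84 to 714 bases) the shares were 30.6% and 28.7%. Features with at least 10 counts in every library showed no such gap in the longest class, with 45.3% in microspore and 46.9% in meiocyte. Features with 1 to 9 counts in every microspore library had a median length of 1685 bases, and those of meiocyte 1195 bases, against 1421 bases for all features with a known length.

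No annotation used here covers all of these low-count features. Among the 40 transposon-annotated loci, 10 had 1 to 9 counts in every microspore library and 4 in every meiocyte library, and 27 and 33 had a count in every library. Of the 185 features placed on unanchored or synthetic sequence, 101.667 ± 1.53 were detected in microspore and 44 ± 3.46 in meiocyte (SD, n = 3). On each of the 12 chromosomes a larger share of the features was seen in every microspore library (54.8% to 69.6%) than in every meiocyte library (41.3% to 60.7%).

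Compared with the rest of the series, the microspore libraries stood at the high end. At 9240046 counts, the smallest total of the 27 libraries, 39869 to 41321 features were expected in microspore, 29857 to 30000 in WT meiocyte and 29367.5 to 29656 in *cmt3b* meiocyte. The *cmt3a* egg libraries, at 29985 and 30692, overlapped the WT meiocyte range. Of the 6358 features seen in every microspore and no meiocyte library, 4470 had no count in *cmt3b* meiocyte, 4179 had none in WT sperm, 5268 had none in WT egg and 2410 had none in *cmt3b* sperm. A count was found in at least 1 deposited WT sperm file for 34.3% of them and in every *cmt3b* sperm library for 15.5%. These limits differ, so the shares are not comparable. Whether library preparation had a part in the number of low-count features was not tested.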

How the data were processed

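The authors cleaned the RNA-seq reads with fastp (0.20.1 per the labels), used HISAT2 for alignment against MSU7.0, and obtained gene counts from featureCounts. Whether strand was used is not given in the sources used here, so overlapping genes may share reads. The deposited files hold counts per gene, which were tested as deposited. They also hold FPKM as deposited by the authors, from which transcript length was recovered, and TPM as deposited by the authors, used for levels. The 6 libraries held 10980349 to 16678222 counts. The floors cover counting error only, while the SD and SE values cover the spread between these libraries.

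Samples were grouped by their labels. Counts were filtered with filterByExpr (minimum 10), scaled by TMM and tested with the quasi-likelihood test of edgeR 4.0.16 in R 4.3.3, with Benjamini-Hochberg adjustment. The limits were an adjusted p under 0.01 and a fold over 2. The scripts were tested on simulated data. Where no library of a group had more than 3 counts, folds were computed against 3 counts in its shallowest library and are given as "at least". Library measures were compared by exact two-sided permutation tests. Features at equal depth are expected numbers in a draw without replacement. Alternatives were DESeq2 1.42.0, its size factors, no filter, all 27 libraries, a replicate block, glmTreat and leaving out each library.

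The members, gene lists and tests were chosen with earlier results of these data known. Named genes are, among called genes that reached 10 CPM without overlap between groups, the 10 largest rises and falls with an annotation and the 2 largest of all; the most abundant feature of each cell type; per group the 2 largest rises and falls and the most abundant member; and the marker lists. Other genes named were chosen after their values were seen. Gene names come from the study's supplementary gene tables. Symbols of 26 of the 38 marker loci, from rice nomenclature, were found in the RefSeq gene table (ASM3414082v1) on the same chromosome, and the other 12 are not named. Bisulfite samples were not analysed here.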

Additional observations from a re-analysis of the deposited data

How the results depend on the processing

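Leaving out 1 library at a time gave 7285 to 7556 genes higher and 7828 to 7980 lower in microspore, 1182 to 1352 gained and 1425 to 1681 lost transcripts. It gave differences (microspore minus meiocyte) of 10.4 to 10.9 percentage points in the share of the 10 most abundant genes, 10867 to 11609 features with at least 1 count at equal depth, and 12386 to 12805 features with 1 to 9 counts. Without the filter on low counts, 12681 genes were higher and 9314 lower. More features were then tested (51674), and the log2 fold changes of the 23884 genes shifted by a median of -0.15. The DESeq2 Wald test gave 10031 genes higher and 7720 lower, and the fit of all 27 libraries gave 9125 and 8706. Which direction held more genes thus depended on the method. With a floor of 0 counts, 408 transcripts were gained and 190 lost, since fewer genes meet it. The difference in share was 11.4 points by TPM, and by counts 3.39 for 1 gene, 9.94 for 50, 8.56 for 100 and 3.61 for 500. The difference in features was 3986 at 3 counts or more and -1068 at 10 or more, where it reversed. No called gene changed direction under any of the 13 alternative fits. The labels do not say that replicate numbers pair libraries; same-numbered libraries had correlations of deviations of 0.01 to 0.02, each higher than with other numbers. With a replicate block, 7078 genes were higher and 7694 lower, 1101 gained and 1390 lost. Against *cmt3b* meiocyte, LOC_Os05g35320 (-0.26), *MET1b* (LOC_Os07g08500, 0.18) and *TDR* (LOC_Os02g02820, -0.034) changed sign; the cause was not tested. Depth limits features with few counts.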
